A study of Mus musculus with 24 samples.

Results

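The 10 genes described here encode transcription factors of medium spiny neurons (MSNs), the GABAergic projection neurons that form the bulk of the striatum. They were chosen by their symbols, *Foxp1*, *Foxp2*, *Bcl11b*, *Meis2*, *Ebf1*, *Isl1*, *Six3*, *Rarb*, *Zfp503* and *Ikzf1*, and all 10 were found among the 24079 genes of the count table, of which 18716 had 1 read or more. Poly(A)+ RNA was sequenced in 24 libraries, 3 for each of 8 groups formed by region, genotype and kind of RNA. The regions were the nucleus accumbens (Acb, labelled Nac) and the dorsal striatum (DS, labelled DStr). The genotypes were wild-type (wt) and rpS6 knockin (KI, here rpS6P-/-), in which every phosphorylation site of ribosomal protein S6 carries alanine in all cells of the mouse. Knockin mice came from crosses of heterozygotes on a mixed C57Bl/6/Sv129/ICR background, wild-type littermates served as controls, and both sexes were used, with no treatment and no age named in the labels. The kinds of RNA were the total RNA of the whole lysate (Total) and the RNA of heavy polysomal fractions (Heavy), which the labels define as holding more than 4 ribosomes per mRNA. Tissue of several mice was pooled for each library. By the methods, part of each lysate was kept as input RNA and part was loaded on a gradient. Each replicate then combined the heavy polysomal fractions of more than 1 such sample. The whole lysate and the heavy polysomal library with the same number are taken here as the same replicate, which the sample titles do not state. Where such pairs are counted below, a lysate stands for this replicate.

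A neuron becomes and stays an MSN because a small set of transcription factors keeps its gene programme on. *Foxp1* and *Foxp2* encode forkhead repressors, the first made in MSNs of both output pathways and the second enriched in those of the direct pathway and known for its part in speech and vocal learning. *Bcl11b* (Ctip2) encodes a zinc finger factor needed for MSN differentiation, *Meis2* a homeodomain factor of the whole striatal lineage, and *Rarb* a retinoic acid receptor that acts in striatal development. *Isl1* and *Ebf1* direct the development of striatonigral MSNs of the direct pathway, whereas *Six3* and *Ikzf1* have been tied to striatopallidal MSNs of the indirect pathway. *Zfp503* (Nolz1) encodes a zinc finger repressor of the developing striatum. Several of them are also made elsewhere: *Isl1* in cholinergic interneurons, *Foxp1*, *Foxp2*, *Bcl11b* and *Meis2* in cortical neurons, *Ebf1* in pericytes and *Ikzf1* in microglia.

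The libraries held 9280589 to 34703044 reads assigned to genes. The noncoding RNA *Bc1* took 15.2 to 26.1% of them in whole lysates and 0.897 to 3.85% in heavy polysomal fractions. Levels are therefore given as CPM, the read count of a gene relative to a library total that was scaled by edgeR's TMM method, which discounts such dominant genes. Of 13 marker symbols of MSNs, 12 were in the table and none was at 0 in any library, with a summed level of 4752 to 5298 CPM in whole lysates and 5906 to 7623 CPM in heavy polysomal fractions. Counts per gene do not show the mutated codons, so the genotype of the libraries was not checked here. In tissue, fewer cells of a type and less RNA per cell cannot be told apart, which holds for every value that follows.

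The factors covered a wide range of levels, which were compared between genes per kilobase of the longest transcript in whole lysates (12 libraries). *Meis2* was the most abundant, with a median of 77.7 CPM per kb (range, 62.3 to 87.8), and did not overlap with *Foxp1* at 44.4 (32.2 to 62.0). *Foxp1*, *Bcl11b* at 35.4 (27.0 to 42.5) and *Rarb* at 33.4 (30.4 to 39.2) overlapped with their neighbours. A gap followed, since *Six3* reached 17.6 CPM per kb (10.7 to 23.1) and *Foxp2* 13.7 (7.97 to 19.6), both below the lowest *Rarb* library. *Isl1* at 5.62 (2.35 to 11.3), *Zfp503* at 4.75 (2.19 to 6.61), *Ebf1* at 2.24 (1.74 to 3.41) and *Ikzf1* at 1.22 CPM per kb (0.646 to 2.05) closed the order, each overlapping with the next. In heavy polysomal fractions *Rarb* stood above *Bcl11b*, at 47.7 against 28.0 CPM per kb. The reads behind these levels ranged from 32 in a library for *Ikzf1* to 16613 for *Meis2*, so the 4 least abundant factors were measured with the least precision. The order depended on the length used: per kilobase of the mean transcript length, *Meis2* at a median of 244.5 and *Foxp1* at 181 CPM per kb still led, but their libraries overlapped. On that scale *Rarb* at 69.0 stood above *Bcl11b* at 63.7, *Foxp2* at 46.1 above *Six3* at 21.7 and *Ebf1* at 5.34 above *Zfp503* at 4.75 CPM per kb, and the highest *Foxp2* library was above the lowest *Rarb* library.

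**Figure D1:**
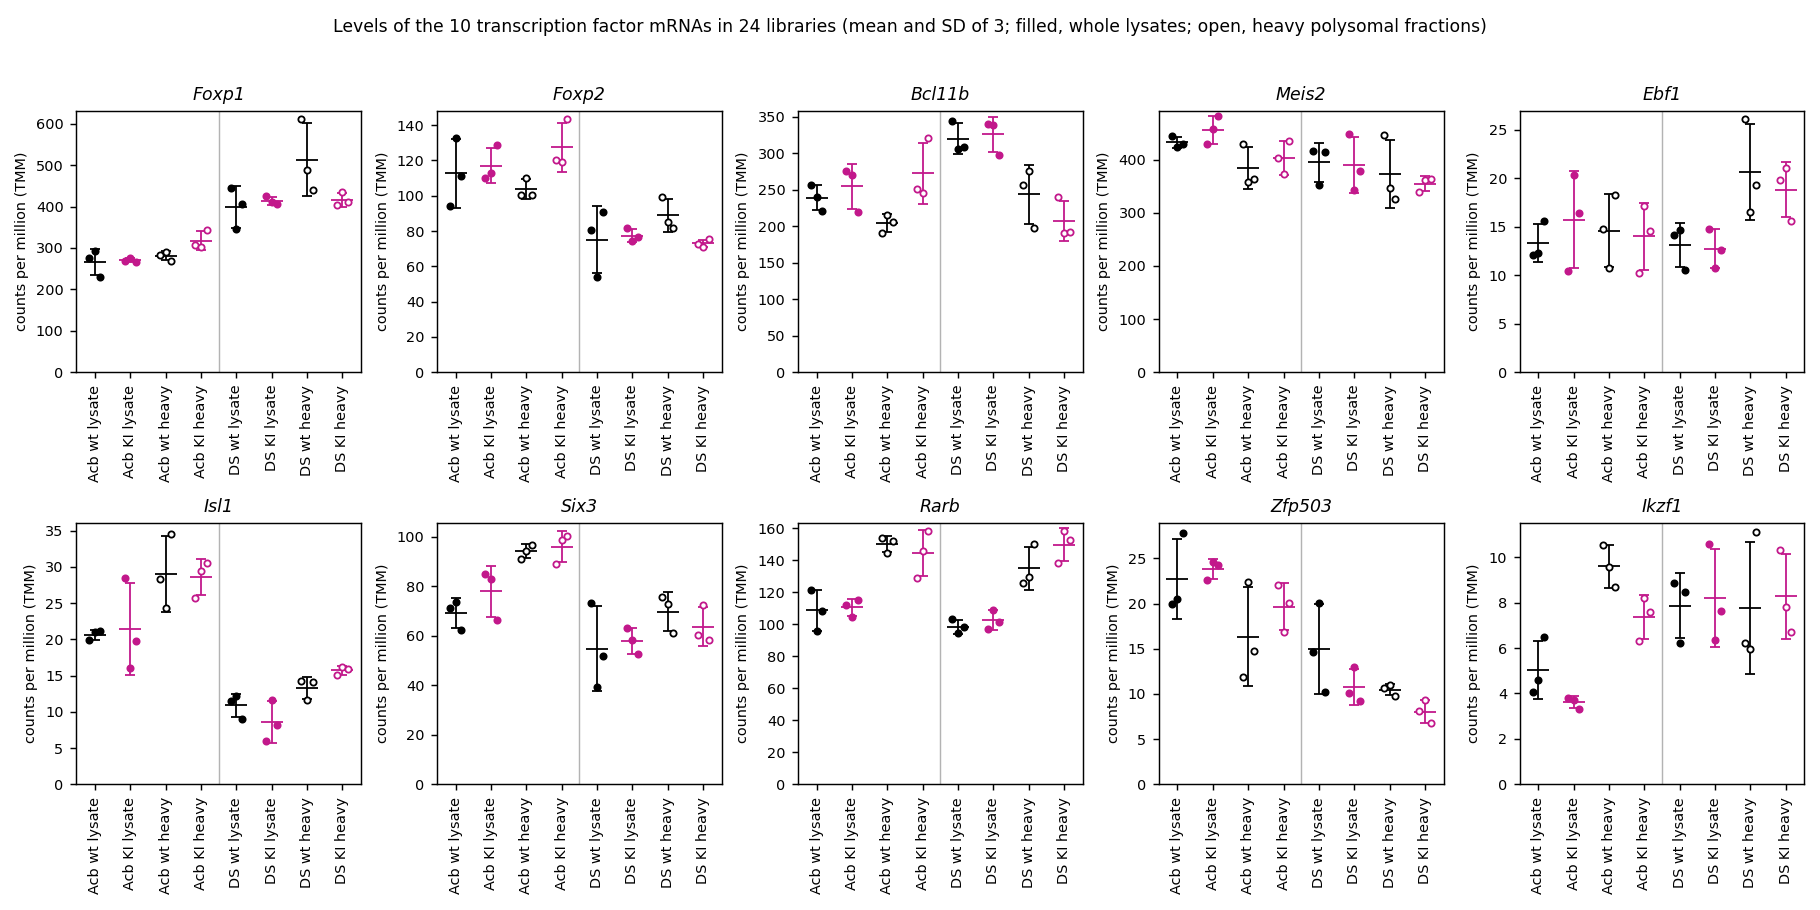
Levels of the 10 factors in CPM (y axis, from 0) in every library, by group (x axis; lysate, whole lysate, filled points; heavy, heavy polysomal fractions, open points; wt in black, KI in magenta). Horizontal bars and whiskers are the mean and SD of 3 libraries. For *Foxp1* all 12 Acb libraries (231 to 343 CPM) lie below all 12 DS libraries (345 to 612 CPM).

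To ask whether the factors differ between the ventral and the dorsal striatum, the Acb was compared with the DS within each genotype and kind of RNA. *Isl1* was higher in the Acb in all 4 comparisons, by 0.85 to 1.32 on the log2 scale. *Foxp2* was higher and *Foxp1* lower in the Acb in 3 of the 4, *Bcl11b* was lower in both comparisons of whole lysates, *Zfp503* was higher in both comparisons of knockin mice, and *Six3* was higher in knockin heavy polysomal fractions. *Meis2*, *Ebf1*, *Rarb* and *Ikzf1* passed the test in none. All values are from edgeR's quasi-likelihood test with Benjamini-Hochberg adjustment over all genes, at an adjusted p under 0.05. In wild-type whole lysates 4 of 10 factors passed (2 in each direction), while 12.7% of the 15557 genes tested did (6.54% higher and 6.15% lower in the Acb). In wild-type heavy polysomal fractions 2 of 10 passed (1 in each direction), against 8.15% of all genes (4.72% higher and 3.43% lower). In knockin whole lysates 5 of 10 passed (3 higher and 2 lower), against 10.9% of all genes (4.84% and 6.03%), and in knockin heavy polysomal fractions 4 of 10 passed, all higher, against 18.6% of all genes (7.89% higher and 10.7% lower). The median log2 fold change of the 10 factors was 0.13, 0.24, 0.25 and 0.28 in this order, and that of all genes 0.0057, 0.031, 0.0031 and 0.012. All Acb libraries were on one side of all DS libraries for 5, 5, 7 and 7 of the 10 factors. Among all genes this held for 27.3, 26.9, 25.9 and 36.4%, so a lack of overlap between 3 and 3 libraries was common. With 3 libraries a group, these p-values measure the spread between pools of mice. The factors were chosen with earlier results of these data known, so their shares beside those of all genes are a description and no test of enrichment.

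The forkhead pair went opposite ways. In wild-type whole lysates *Foxp1* (chromosome 6, 98925342 to 99522746, GRCm38.p6) reached 275, 292 and 231 CPM in the Acb and 445, 345 and 407 CPM in the DS, so that every Acb library was below every DS library. Its level was 266 ± 31.6 CPM in the Acb and 399 ± 50.7 CPM in the DS (SD, n = 3), a log2 fold change of -0.59 ± 0.12 (SE; adjusted p = 0.000314). The difference was -0.81 ± 0.16 in wild-type heavy polysomal fractions (adjusted p = 0.00332) and -0.62 ± 0.10 in knockin whole lysates (adjusted p = 7.03e-06). All 3 calls were kept under the 14 alternatives tried for each. In knockin heavy polysomal fractions it was -0.40 ± 0.16 and missed the threshold (adjusted p = 0.0871), although it passed with DESeq2's Wald test (adjusted p = 0.0178).

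*Foxp2* (chromosome 6, 14901349 to 15441977) showed the reverse order. In knockin heavy polysomal fractions it was at 120.2, 119 and 144 CPM in the Acb and at 72.7, 71.0 and 75.3 CPM in the DS, without overlap, a log2 fold change of 0.80 ± 0.17 (adjusted p = 0.00222). Knockin whole lysates gave 0.58 ± 0.13 (adjusted p = 0.00147). In wild-type whole lysates it was at 94.1, 133 and 111 CPM in the Acb and at 80.9, 53.9 and 90.8 CPM in the DS, again without overlap, and differed by 0.58 ± 0.16 (adjusted p = 0.00876). This last call rested on single libraries: without DS whole lysate 2 the adjusted p was 0.146, and without Acb whole lysate 2 it was 0.135. Wild-type heavy polysomal fractions gave 0.28 ± 0.16 (adjusted p = 0.325).

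Within a library, the reads of *Foxp1* divided by those of *Foxp2* do not depend on scaling. This ratio was 2.08 to 2.92 in the 12 Acb libraries and 4.48 to 6.40 in the 12 DS libraries, with means of 2.48 ± 0.269 and 5.57 ± 0.507 (SD, n = 12 libraries from 6 lysates a region). The regions did not overlap in either genotype or kind of RNA. The ratio was formed after the fold changes of both genes were known and is given as a description.

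**Figure D2:**
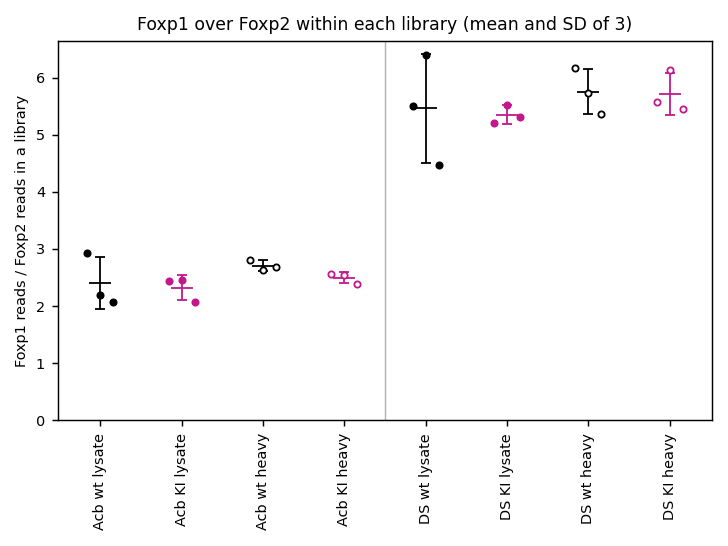
Reads of *Foxp1* divided by reads of *Foxp2* within each library (y axis, from 0) by group (x axis; filled points, whole lysates; open points, heavy polysomal fractions; wt black, KI magenta; bars and whiskers, mean and SD of 3 libraries). The 12 Acb libraries lie between 2.08 and 2.92 and the 12 DS libraries between 4.48 and 6.40.

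*Bcl11b* (chromosome 12, 107910403 to 108004145) followed *Foxp1* in whole lysates. Wild-type lysates held 256, 240.2 and 221 CPM in the Acb and 345, 306 and 309 CPM in the DS, with no overlap, a log2 fold change of -0.43 ± 0.11 (adjusted p = 0.00765). Knockin lysates gave -0.36 ± 0.11 (adjusted p = 0.0164). In heavy polysomal fractions it passed in neither genotype, at -0.20 ± 0.16 in wild-type (adjusted p = 0.529) and 0.38 ± 0.17 in knockin mice (adjusted p = 0.133), where all 3 Acb libraries (252, 246 and 321 CPM) were above the DS libraries (239.6, 190.2 and 193 CPM). The lysate calls were lost in wild-type mice with library size alone (adjusted p = 0.0843) or without DS lysate 1 (0.0624), and in knockin mice with the length trend removed (0.131), with all 24 libraries in 1 fit (0.0794), or without DS lysate 1 (0.119), DS lysate 2 (0.124) or Acb lysate 3 (0.12).

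Markers of cortical excitatory neurons, cells that also make *Foxp1*, *Foxp2*, *Bcl11b* and *Meis2*, moved with region. All 9 were in the table and none was at 0 in any library, 7 of 9 were lower in the Acb in each of the 4 comparisons, and their summed level was 142 to 282 CPM in Acb lysates and 935 to 1166 CPM in DS lysates, or 134 to 303 and 1009 to 1302 CPM in heavy polysomal fractions. The summed level of the MSN markers was 4752 to 5154 CPM in Acb lysates and 4816 to 5298 CPM in DS lysates, which overlapped. This sum hides opposite changes of single markers. Of the 12 tested, 3 were higher and 4 lower in the Acb in wild-type lysates, and 3 and 1 in wild-type heavy polysomal fractions. Knockin lysates gave 3 and 3, and knockin heavy polysomal fractions 2 and 3. In wild-type lysates *Pdyn* had a mean of 246 CPM in the Acb and 60.3 CPM in the DS, and *Pde10a* 594 and 1026 CPM. The part of cortical RNA in the difference of *Foxp1* and *Bcl11b* was not tested.

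*Isl1* (chromosome 13, 116298270 to 116309688) passed in all 4 comparisons of regions, though its 12 Acb libraries (16.1 to 34.6 CPM) and 12 DS libraries (5.92 to 16.2 CPM) overlapped slightly when taken across groups. Wild-type heavy polysomal fractions held 28.3, 24.3 and 34.6 CPM in the Acb and 14.2, 11.6 and 14.1 CPM in the DS, a log2 fold change of 1.18 ± 0.22 (adjusted p = 0.00268). Wild-type lysates gave 20.7 ± 0.68 against 10.9 ± 1.62 CPM, or 0.91 ± 0.26 (adjusted p = 0.0132). The Acb libraries were above the DS libraries in both. In knockin mice the difference was 1.32 ± 0.31 in whole lysates (adjusted p = 0.00263) and 0.85 ± 0.20 in heavy polysomal fractions (adjusted p = 0.00494). The lysate calls were lost without wild-type DS lysate 3 (adjusted p = 0.0574) and without knockin Acb lysate 1 (0.0503). Markers of cholinergic interneurons, which also make *Isl1*, moved the same way: 2, 3, 2 and 2 of 5 were higher in the Acb in wild-type lysates, wild-type heavy polysomal fractions, knockin lysates and knockin heavy polysomal fractions, none was at 0 in a library, and their summed level was 69.6 to 86.0 CPM in Acb lysates and 32.4 to 46.1 CPM in DS lysates, or 60.0 to 76.5 and 27.7 to 38.1 CPM in heavy polysomal fractions. Their part in the difference of *Isl1* was not tested.

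*Zfp503* (chromosome 14, 21983959 to 21989601) was higher in the Acb of knockin mice in both kinds of RNA. Its lysates held 22.6, 24.6 and 24.3 CPM in the Acb and 10.1, 13.0 and 9.22 CPM in the DS, a log2 fold change of 1.14 ± 0.27 (adjusted p = 0.00307). Heavy polysomal fractions gave 1.28 ± 0.24 (adjusted p = 0.000884), and both calls were kept under all 14 alternatives. In wild-type mice it differed by 0.59 ± 0.26 in whole lysates (adjusted p = 0.146) and 0.69 ± 0.27 in heavy polysomal fractions (adjusted p = 0.146). The difference between the genotypes did not pass its own test (interaction 0.57 ± 0.38 in whole lysates, adjusted p = 0.976, and 0.61 ± 0.36 in heavy polysomal fractions, adjusted p = 0.463). *Six3* (chromosome 17, 85613608 to 85626191) was at 88.8, 98.7 and 100.4 CPM in the Acb and 60.2, 72.6 and 58.2 CPM in the DS in knockin heavy polysomal fractions, a difference of 0.58 ± 0.17 (adjusted p = 0.0222). This was lost with the replicate number as a block (adjusted p = 0.0703) and without DS library 1 (0.0653), DS library 3 (0.09) or Acb library 2 (0.0725). In the other 3 comparisons *Six3* was 0.33 to 0.49 higher in the Acb with adjusted p of 0.0686 to 0.252, and wild-type heavy polysomal fractions passed with library size alone (0.0252), DESeq2 (0.0401) or the replicate block (0.0188).

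The remaining factors did not pass in any region comparison. *Meis2* stayed within 0.10 to 0.22 (adjusted p = 0.193 to 0.806), with 95% intervals from -0.24 to 0.51, and *Rarb* within -0.06 to 0.21 (adjusted p = 0.484 to 0.842), with intervals from -0.41 to 0.53. *Ebf1* ranged from -0.44 to 0.29 (adjusted p = 0.22 to 0.987). *Ikzf1* was at 3.82, 3.72 and 3.34 CPM in knockin Acb lysates and at 10.6, 6.38 and 7.62 CPM in knockin DS lysates, without overlap, but with 32 to 47 reads per Acb library the log2 fold change of -1.19 ± 0.46 missed the threshold (adjusted p = 0.103). It passed with all 24 libraries in 1 fit (adjusted p = 0.0308). The log2 fold change of *Ikzf1* was -0.66 in wild-type lysates, 0.35 in wild-type heavy polysomal fractions and -0.17 in knockin heavy polysomal fractions. Of 7 microglial markers, from cells that also make *Ikzf1*, 6, 6, 2 and 3 were higher in the Acb and none lower. Their summed level was 173 to 231 CPM in Acb lysates against 104 to 136 CPM in DS lysates. Beside these, astrocyte markers (4, 3, 2 and 3 of 6 higher), oligodendrocyte markers (3, 1, 3 and 3 of 7 higher, with 1 lower in knockin heavy polysomal fractions) and thalamic or septal markers (4, 3, 2 and 3 of 4 higher) were also higher in the Acb. So were some of the 5 choroid plexus markers, of which 3, 3, 3 and 4 were tested, with 2, 3, 1 and 2 higher and none passing as lower. Their summed level was 29.1 to 54.2 CPM in Acb lysates against 11.0 to 19.6 CPM in DS lysates. Most of it was *Clic6*, with a mean of 28.1 CPM in wild-type Acb lysates and 13.9 CPM in wild-type DS lysates. In knockin heavy polysomal fractions *Ttr* went the other way, at 0.75 CPM in the Acb and 2.55 CPM in the DS. *Folr1* was at 0 in 18 and *Kcnj13* in 16 of the 24 libraries. Of 7 markers of endothelial cells and pericytes, the latter also making *Ebf1*, 6 or 7 were tested and 0 passed in any comparison of regions. Their summed level was 12.2 to 30.2 CPM in Acb lysates and 13.8 to 33.1 CPM in DS lysates, and *Cdh5* was at 0 in 8 libraries. The part of these cells in the differences between regions was not tested.

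**Figure D3:**
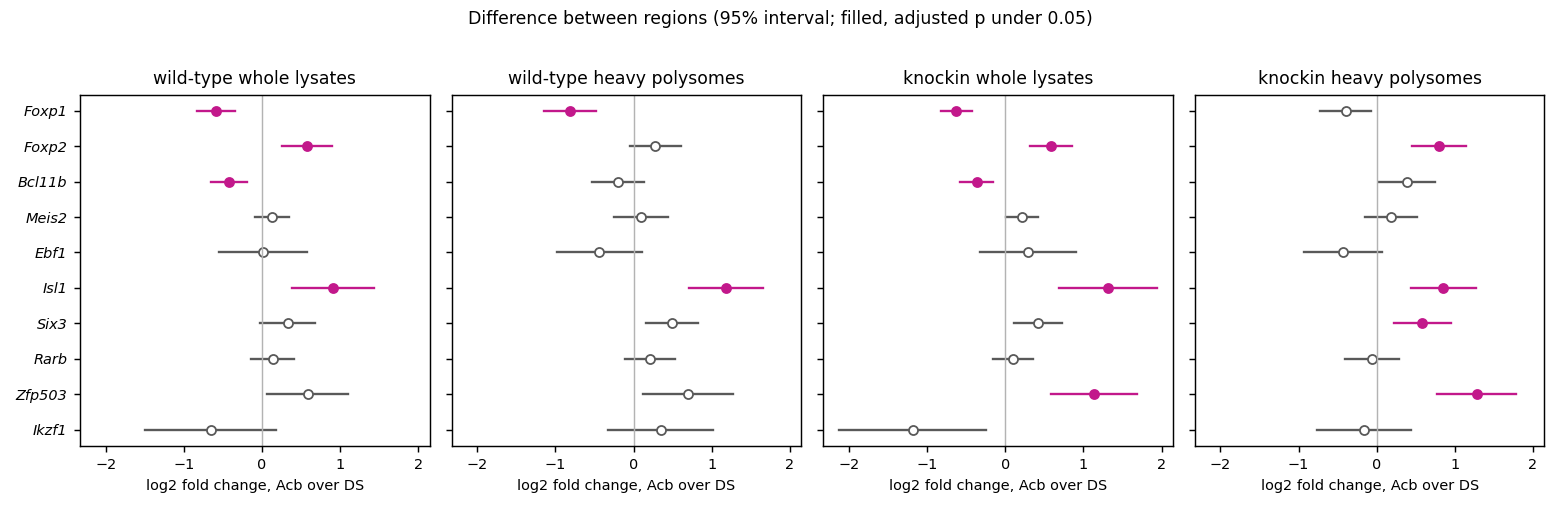
Log2 fold change of each factor, Acb over DS (x axis), with its 95% interval (lines), in the 4 comparisons of regions (panels); filled magenta points passed an adjusted p under 0.05. *Isl1* is filled in all 4 panels, at 0.91, 1.18, 1.32 and 0.85 from left to right.

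To ask how much of each mRNA is carried by many ribosomes, heavy polysomal fractions were compared with whole lysates in each region and genotype. *Rarb* was higher in heavy polysomal fractions in 3 of the 4 comparisons and *Bcl11b* lower in both comparisons of the DS, while *Six3* and *Ikzf1* in the wild-type Acb and *Isl1* in the knockin DS were higher in 1 each. The other 5 factors passed in none, and no factor passed in the knockin Acb. In the wild-type Acb 3 of 10 factors passed, all higher, while 25.9% of all genes did (13.0% higher and 12.9% lower in heavy polysomal fractions). In the wild-type DS 2 of 10 passed, 1 in each direction, against 24.3% of all genes (12.8% and 11.5%). In the knockin Acb 0 of 10 passed (2 of 10 at an unadjusted p under 0.05, and 0 with DESeq2), against 17.2% (7.7% and 9.5%), and in the knockin DS 3 of 10, 2 higher and 1 lower, against 28.6% (13.8% and 14.8%). These shares of the factors were near or below those of all genes. All heavy polysomal libraries were on one side of all whole lysates for 5, 3, 5 and 4 of the 10 factors in the same order. Among all genes this held for 38.4, 37.7, 34.0 and 40.1%. The median log2 fold change of the 10 factors was 0.10, 0.23, 0.16 and -0.027, against 0.030, 0.0010, 0.0091 and 0.027 for all genes. Scaling to library size alone moved the median of all genes to 0.19 to 0.31 in these 4 comparisons, so the values below hold relative to the TMM scale.

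*Rarb* (chromosome 14, 16430839 to 17082331) was the most constant of the factors in this comparison. Divided between libraries of the same number, its heavy polysomal level was 1.15 to 1.53 times its whole-lysate level (median 1.40). The ratio was above 1 in 12 of 12 lysates. A ratio above 1 in all 12 lysates was also found for 12.1% of the 11880 genes with 50 reads or more on average, and a ratio below 1 in all 12 for 10.9%. In the knockin DS *Rarb* was at 139, 158 and 153 CPM in heavy polysomal fractions and at 97.0, 109 and 101 CPM in whole lysates, without overlap, a log2 fold change of 0.51 ± 0.14 (adjusted p = 0.00351) that was kept under all 14 alternatives. The wild-type Acb gave 0.46 ± 0.14 (adjusted p = 0.0175) and the wild-type DS 0.42 ± 0.16 (adjusted p = 0.0452). Both were lost with the length trend removed (adjusted p = 0.0651 and 0.104), the first also without Acb lysate 2 (0.115) or heavy library 3 (0.0501), and the second with DESeq2's size factors (0.05003) or without DS lysate 1 (0.0915), lysate 2 (0.164), lysate 3 (0.121) or heavy library 3 (0.181). The knockin Acb gave 0.37 ± 0.16 and missed the threshold (adjusted p = 0.12).

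A promoter inside *Rarb* is shown because this receptor gene carries a retinoic acid response element of its own, the link between the receptor and the pathway described further on. The sequence is the 250 bases before and the 50 bases from the start of a transcript, from RefSeq on GRCm38.p6, chr14:16575427-16575726, minus strand, with the element in capitals. On this strand the gene begins at 17082331, so the window belongs to a shorter transcript that starts inside the gene. Counts per gene do not show which transcript of *Rarb* was made here.
Rarb promoter: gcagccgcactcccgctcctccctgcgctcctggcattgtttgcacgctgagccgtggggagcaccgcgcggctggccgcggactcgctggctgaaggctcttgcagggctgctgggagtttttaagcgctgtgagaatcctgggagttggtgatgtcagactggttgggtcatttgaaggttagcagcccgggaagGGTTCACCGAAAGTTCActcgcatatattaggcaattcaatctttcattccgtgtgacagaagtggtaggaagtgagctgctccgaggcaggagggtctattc
The capitals lie at -53 to -37 from the start. The spaced repeat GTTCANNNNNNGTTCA, searched on both strands, was in 25 of 32851 RefSeq promoters of this length (0.0761%) and in 1 of the 13 promoters listed for 9 of the 10 factors. The MEIS motif TGACAG was in promoters of *Foxp1*, *Rarb* and *Six3* and in 19.2% of all promoters, and the forkhead motif GTAAACA and the EBF motif TCCCNNGGGA were in none of the 13 and in 3.65% and 0.904% of all. These matches describe letters in a window and no binding.

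*Bcl11b* had the clearest decrease in heavy polysomal fractions. In the knockin DS it was at 239.6, 190.2 and 193 CPM in heavy polysomal fractions and at 341, 339 and 298 CPM in whole lysates, without overlap, a log2 fold change of -0.69 ± 0.13 (adjusted p = 4.02e-05). In the wild-type DS it was at 257, 276 and 198 CPM against 345, 306 and 309 CPM, also without overlap, or -0.43 ± 0.15 (adjusted p = 0.0338). Its heavy polysomal level was 0.56 to 0.90 times that of the lysate in the 6 DS lysates and 0.74 to 1.46 times in the 6 Acb lysates. *Bcl11b* has the longest transcript of the 10 (8111 bases, against 3108 for *Rarb*). With the trend on transcript length removed, both calls were lost: the log2 fold change was -0.11 in the knockin DS (adjusted p = 0.634) and turned to 0.11 in the wild-type DS (adjusted p = 0.718). The knockin call was kept under 7 of 8 settings and in 6 of 6 fits that left out 1 library. The part of transcript length itself was not tested. The wild-type call was also lost with library size alone (-0.24, adjusted p = 0.261) and without DS lysate 1 (0.162), lysate 2 (0.0786), lysate 3 (0.076) or heavy library 3 (0.184). The difference between the regions in wild-type mice did not pass (0.16 ± 0.20, adjusted p = 1.0).

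*Six3* in the wild-type Acb was at 91.0, 94.3 and 96.7 CPM in heavy polysomal fractions and at 71.3, 73.5 and 62.2 CPM in whole lysates, a log2 fold change of 0.44 ± 0.15 (adjusted p = 0.0288). It was lost without lysate 1 (adjusted p = 0.0695), lysate 3 (0.101) or heavy library 3 (0.0963). *Ikzf1* in the same libraries was at 10.5, 9.59 and 8.67 CPM against 4.05, 4.60 and 6.48 CPM, or 0.94 ± 0.34 (adjusted p = 0.0398). This call, on 53 to 73 reads per lysate, was lost when any library but lysate 3 was left out, the adjusted p being 0.153, 0.0792 and 0.0794 without heavy library 1, 2 or 3 and 0.132 and 0.0722 without lysate 1 or 2. Its ratio of heavy polysomal to whole-lysate level was 1.34 to 2.60 in the 6 Acb lysates and 0.70 to 1.31 in the 6 DS lysates, which did not overlap, but the interaction of fraction and region in wild-type mice did not pass (0.95 ± 0.51, adjusted p = 1.0). In these wild-type Acb libraries 3 of 7 microglial markers were higher and 1 lower in heavy polysomal fractions, with a summed level of 246 to 335 against 196 to 231 CPM. The part of microglia in the value of *Ikzf1* was not tested.

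*Isl1* in the knockin DS was at 15.1, 16.2 and 15.9 CPM in heavy polysomal fractions and at 5.92, 11.7 and 8.22 CPM in whole lysates, a log2 fold change of 0.84 ± 0.29 (adjusted p = 0.0229). It was lost with the length trend removed (adjusted p = 0.11) and without lysate 1 (0.132), lysate 3 (0.0543) or heavy library 2 (0.0672). Its ratio was above 1 in 10 of 12 lysates, as was that of *Foxp1*. *Foxp1* reached 0.33 ± 0.15 in the wild-type DS (adjusted p = 0.112), and with the length trend removed it passed in all 4 comparisons (adjusted p = 0.04998, 0.000133, 0.041 and 0.0033 for wild-type Acb, wild-type DS, knockin Acb and knockin DS), turning from -0.028 to 0.49 in the last. *Ebf1* was at 0.62 ± 0.27 in the wild-type DS (adjusted p = 0.0948) and 0.53 ± 0.26 in the knockin DS (adjusted p = 0.12). It passed in both with the length trend removed (0.9997, adjusted p = 0.00511, and 0.93, adjusted p = 0.00457) and with library size alone (adjusted p = 0.0281 and 0.0159), and in the wild-type DS without heavy library 2 (adjusted p = 0.0441). Its ratio was 1.13 to 1.96 in the 6 DS lysates and 0.84 to 1.22 in the 6 Acb lysates. *Meis2* kept to ratios of 0.76 to 1.07 (median 0.92), *Zfp503* to 0.53 to 1.09 (median 0.73) and *Foxp2* to 0.83 to 1.58 (median 1.02), and none of them passed. *Foxp2* passed in the wild-type DS with the length trend removed (0.65 against 0.21, adjusted p = 0.00647), and *Zfp503* was lower in the wild-type Acb without heavy library 2 (-0.77 against -0.48, adjusted p = 0.0308).

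**Figure D4:**
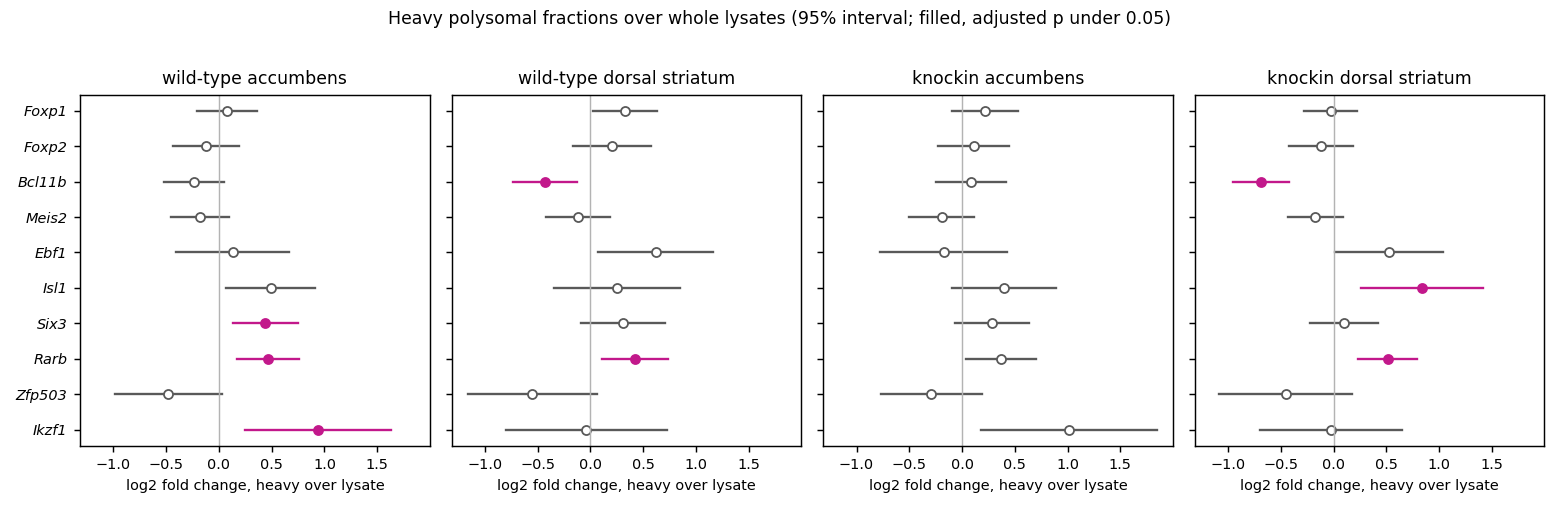
Log2 fold change of each factor, heavy polysomal fractions over whole lysates (x axis), with its 95% interval (lines), in each genotype and region (panels); filled magenta points passed an adjusted p under 0.05. *Rarb* is at 0.46, 0.42, 0.37 and 0.51 from left to right and is filled in 3 panels, and *Bcl11b* is filled below 0 in both DS panels.

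The study was made to compare knockin with wild-type mice. None of the 10 factors passed in either region or kind of RNA, with edgeR or with DESeq2. At an unadjusted p under 0.05 this held for *Bcl11b* in Acb heavy polysomal fractions and no other factor in any of the 4 comparisons. In Acb lysates 1 gene of all 15393 passed (0.0065%), in Acb heavy polysomal fractions 0 of 16227 (0.0%), in DS lysates 0.122% and in DS heavy polysomal fractions 0.044%. At an unadjusted p under 0.05 these were 2.96, 21.7, 9.07 and 6.42% of all genes, and DESeq2 called 1090 genes in Acb heavy polysomal fractions. All knockin libraries were on one side of all wild-type libraries for 1, 4, 0 and 4 of the 10 factors in this order, against 8.33, 24.5, 13.7 and 11.6% of all genes. The median log2 fold change of the factors, knockin over wild-type, was 0.065, 0.054, 0.020 and -0.079, and that of all genes -0.00036, -0.0088, -0.0031 and 0.030.

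*Bcl11b* came nearest to the threshold. In Acb heavy polysomal fractions it was at 252, 246 and 321 CPM in knockin and at 191, 215 and 207 CPM in wild-type mice, so that all knockin libraries were above, a log2 fold change of 0.42 ± 0.16 (95% interval, 0.09 to 0.75, unadjusted p = 0.016, adjusted p = 0.148). *Foxp2* at 120.2, 119 and 144 against 101, 110.3 and 101 CPM (0.30 ± 0.15, adjusted p = 0.264) and *Foxp1* at 308, 302 and 343 against 283, 291 and 269.5 CPM (0.18 ± 0.15, adjusted p = 0.501) were also without overlap, as was *Ikzf1*, lower in knockin mice (-0.37 ± 0.23, adjusted p = 0.355). In DS heavy polysomal fractions *Foxp1* (-0.25 ± 0.17), *Foxp2* (-0.23 ± 0.18) and *Zfp503* (-0.33 ± 0.33) were below and *Isl1* (0.29 ± 0.27) above all wild-type libraries, with adjusted p of 0.848 to 0.946. In whole lysates the intervals of the abundant factors were narrow: *Foxp1* -0.22 to 0.26 in the Acb and -0.15 to 0.23 in the DS, *Bcl11b* -0.16 to 0.34 and -0.18 to 0.20, *Meis2* -0.14 to 0.30 and -0.23 to 0.17, and *Rarb* -0.26 to 0.31 and -0.20 to 0.28. Those of the rare factors were wide, -1.67 to 0.73 for *Ikzf1* and -0.47 to 0.59 for *Isl1* in the Acb.

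Whether a difference changed with another was tested by interactions, and no factor passed one. Among all genes, 0 of 16684 (0.0%) passed for fraction by region in wild-type mice, 0 of 16687 (0.0%) and 0 of 16544 (0.0%) for genotype by fraction in the Acb and the DS, 0.00611% for genotype by region in whole lysates and 0.00592% in heavy polysomal fractions. At an unadjusted p under 0.05 these were 4.6, 11.9, 4.9, 5.11 and 13.8% of all genes, and 3 of 10 factors, all in the last comparison. There the knockin effect was higher in the Acb than in the DS by 0.62 ± 0.23 for *Bcl11b* (unadjusted p = 0.0133, adjusted p = 0.231), 0.55 ± 0.22 for *Foxp2* (0.018 and 0.255) and 0.45 ± 0.22 for *Foxp1* (0.0471 and 0.352). DESeq2 called 236 genes in that comparison and none of the factors, and 1, 0, 0 and 0 genes in the first 4.

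**Figure D5:**
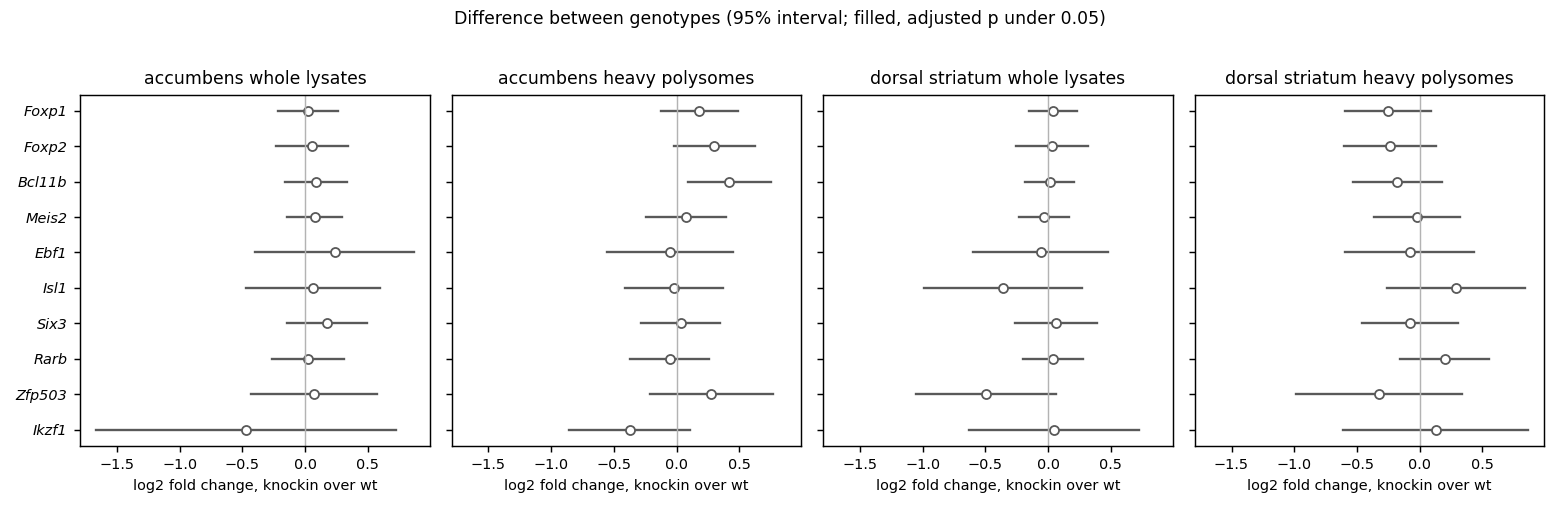
Log2 fold change of each factor, knockin over wild-type (x axis), with its 95% interval (lines), in each region and kind of RNA (panels); no factor passed an adjusted p under 0.05, so all points are open. *Bcl11b* in Acb heavy polysomal fractions, at 0.42, is the one whose interval does not cross 0.

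Genes related to the factors were described from 3 lists. These were also chosen with earlier results of these data known, so their shares describe the lists and test no enrichment. Of 22 transcription factors of the striatal lineage, 9 passed between regions in wild-type lysates, 7 higher and 2 lower in the Acb, and 7 in wild-type heavy polysomal fractions, 6 higher and 1 lower. Knockin lysates gave 6 higher and 1 lower, and knockin heavy polysomal fractions 8 higher and none lower. The shares of all genes that passed in these comparisons were 12.7, 8.15, 10.9 and 18.6%. *Nkx2-1* and *Lhx8*, factors of the medial ganglionic eminence whose neurons become interneurons and pallidal cells, were higher in the Acb of wild-type lysates, the first by 1.94 ± 0.47 (adjusted p = 0.00312) and the second at 15.1 ± 0.964 against 5.29 ± 1.67 CPM (adjusted p = 0.00124). *Mef2c*, a factor of activity-dependent transcription also strong in cortical neurons, was lower in the Acb, at 174 ± 15.9 against 420 ± 20.7 CPM (-1.28 ± 0.12). In heavy polysomal fractions over lysates 6 of 22 passed in each region of wild-type mice, which was near the shares of all genes (25.9 and 24.3%). The named ones were, within the Acb, *Tshz1* (0.68 ± 0.14) and *Dlx6* (0.54 ± 0.18), higher in heavy polysomal fractions, and *Zfhx3*, lower (14.2 ± 2.19 against 28.4 ± 4.88 CPM).

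Of 17 genes of the retinoic acid pathway, in which vitamin A is taken up, converted and bound by receptors such as *Rarb* that pair with RXR partners, 16 were tested in wild-type lysates, with 3 higher and 3 lower in the Acb, against 12.7% of all genes. Wild-type heavy polysomal fractions gave 3 of 17, against 8.15% of all genes, knockin lysates 4 of 16, against 10.9%, and knockin heavy polysomal fractions 6 of 17, against 18.6%. *Stra6*, the retinol uptake receptor, was higher by 2.27 ± 0.61 (adjusted p = 0.00849). *Rxrg*, the RXR partner typical of the striatum, was at 69.5 ± 6.86 against 138 ± 8.44 CPM (-0.99 ± 0.13), and *Cyp26b1*, which degrades retinoic acid, was lower by -1.40 ± 0.43 (adjusted p = 0.0225). *Stra6* and *Rxrg* passed in the same direction in wild-type heavy polysomal fractions, while *Rarb* itself passed in no region comparison. In heavy polysomal fractions over lysates 5 of 16 passed in the wild-type Acb and 4 of 16 in the wild-type DS, near the shares of all genes (25.9 and 24.3%). *Crabp1*, a retinoic acid binding protein, was higher by 1.31 ± 0.27 in the wild-type Acb, and *Crabp2* by 1.61 ± 0.45 in the wild-type DS. Of 21 paralogs of the 10 factors, 16 to 18 were tested in each comparison of regions, of heavy polysomal fractions with lysates and of genotypes, and 3 passed in any of them. These were *Zfp703*, *Ebf4* and *Rara*. *Zfp703*, the paralog of *Zfp503*, was lower in wild-type Acb lysates (16.2 ± 3.11 against 26.9 ± 2.35 CPM, -0.74 ± 0.23, adjusted p = 0.0257). In wild-type heavy polysomal fractions *Ebf4* was higher in the Acb (4.24 ± 1.17 against 0.699 ± 0.611 CPM) and *Rara* lower (6.79 ± 0.657 against 13.5 ± 2.08 CPM, -0.94 ± 0.27, adjusted p = 0.0431). Between regions, 1 of 18 paralogs passed in wild-type lysates and 2 of 17 in wild-type heavy polysomal fractions, against 12.7 and 8.15% of all genes. Knockin lysates gave 0 of 16 and knockin heavy polysomal fractions 0 of 18, against 10.9 and 18.6%. In heavy polysomal fractions over lysates 0 paralogs passed in either region or genotype, against 17.2 to 28.6% of all genes. No gene of the 3 lists passed between genotypes in any of the 4 comparisons.

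Last, the genes whose level was most like each factor were named by Pearson's r of log2 CPM over the 12 whole-lysate libraries, among genes with 50 reads or more on average. These values describe 12 libraries that share region, genotype and scaling, and carry no test. *Foxp1* was most like *Kcnab1* (0.977), which encodes a potassium channel subunit, *Pde10a* (0.976), the phosphodiesterase typical of MSNs, and *Trim9* (0.976), all 3 lower in the Acb. *Bcl11b* was most like *Mtpn*, *Kif3c* and *Ldlrad4* (0.981 to 0.967), also all lower in the Acb. *Isl1* was most like *Sox2*, *Sumf1* and *Pde9a* (0.945 to 0.940). *Zfp503* was most like *Rpl36*, *Rps12* and *Rps20* (0.964 to 0.951), which encode cytosolic ribosomal proteins. The closest gene was *Lrrn1* for *Foxp2* (0.941), *Glod4* for *Meis2* (0.925), *Hyi* for *Ebf1* (0.925), *Kctd12* for *Six3* (0.929), *Tmem117* for *Rarb* (0.868) and *Uap1* for *Ikzf1* (0.966). No gene among the 3 closest to a factor over the 12 lysates was among the 3 closest over all 24 libraries.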

How the data were processed

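RNA of 24 libraries was sequenced from stranded TruSeq preparations. Per the labels and the methods, the authors processed the reads with CASAVA 1.8.2 and FastQC, aligned them with TopHat2 2.0.13 and Bowtie2 2.2.3 to mm10 (GRCm38) with UCSC gene models, and counted them per gene with HTSeq 0.6.1p1. The deposited values are raw counts, without normalization. Groups were taken from the sample titles. The 10 factors and the gene lists were chosen with earlier results of these data known.

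Comparisons were fitted with edgeR 4.0.16 (glmQLFit and glmQLFTest, R 4.3.3) on the libraries of each comparison, with TMM scaling, genes of at least 15 reads in sum, and Benjamini-Hochberg adjustment over all genes at 0.05. The fits were tested on simulated data first. Alternatives were DESeq2 1.42.0 (size factors and Wald test), library size alone, filterByExpr, no filter beyond 1 read, all 24 libraries in 1 fit, a loess trend on transcript length removed (span 0.5), the replicate number as a block, and leaving out each library. The genes named were the 10 factors, the 3 genes with the highest r to each (log2 CPM, prior count 2, at least 50 reads on average), and, from each list, the 2 genes a direction with the largest change among those passing in a region or fraction comparison of wild-type mice. Some genes that this rule names are not reported here.

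Whole lysate and heavy polysomal library of 1 number are taken to be the same replicate, since by the methods each lysate gave both kinds of RNA. A replicate combined the heavy polysomal fractions of more than 1 lysate, so the pair need not come from a single lysate. The deviations from the group means of same-numbered libraries correlated across 11979 genes at -0.0376 to 0.0743 between kinds of RNA, -0.256 to 0.217 between regions and -0.295 to 0.320 between genotypes. Between kinds of RNA 0 of 12 pairs were above 0.1, so the counts do not show this pairing. The ratios within a lysate rest on the numbering alone.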

Additional observations from a re-analysis of the deposited data

How the results depend on the processing

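In the heavy polysomal comparisons, the number of factors passing changed from 2 in the wild-type DS to 1 with DESeq2's size factors and to 3 with library size alone or the length trend removed, from 3 to 4 in the wild-type Acb and the knockin DS with library size alone, and from 0 in the knockin Acb to 5 with library size alone, 2 with all 24 libraries in 1 fit and 1 with the length trend removed. With the length trend removed, *Bcl11b* turned to 0.11 in the wild-type DS and *Foxp1* to 0.49 in the knockin DS. Without 1 library each, 0 to 4 factors passed in the wild-type Acb, 0 to 4 in the wild-type DS, 0 in the knockin Acb and 2 to 3 in the knockin DS, and between regions 3 to 4, 2, 4 to 5 and 3 to 4. With the replicate number as a block, *Six3* passed between regions in wild-type heavy polysomal fractions (0.49, adjusted p = 0.0188) and no longer passed in knockin ones (0.59, adjusted p = 0.0703), and no other call of a factor changed. No factor passed for genotype or in an interaction under any alternative. Counts over all genes moved more: for genotype in Acb heavy polysomal fractions from 0 to 1090 with DESeq2, 813 with all 24 libraries, 549 without the filter and 98 with the block. With 3 libraries a group, and few reads for *Ikzf1*, small differences were not detectable at this depth.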
